A study of Mus musculus with 20 samples.

Results

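The 10 genes described here encode cytokines and receptors of the interleukin-1 (IL-1) family, and they were found by symbol among the 22090 genes of the count table. The agonist ligands were Il1a (IL-1 alpha), Il1b (IL-1 beta), Il18, Il33, Il1f6 (IL-36 alpha) and Il1f9 (IL-36 gamma). The others were Il1rn, the IL-1 receptor antagonist, and the receptors Il1r1, Il1r2 and Il1rl1. RNA-seq was performed on 20 skin tissues of Hairless SKH-1 mice, all female and 7 months old at the start of the experiment, a strain used to study skin tumors caused by ultraviolet radiation (UVR). There were 8 samples of normal skin (NS), 8 of actinic keratosis (AK), a precancerous lesion, and 4 of cutaneous squamous cell carcinoma (cSCC). By the study's protocol, 4 NS came from mice that were not irradiated, and the other 4 NS and every AK and cSCC came from 4 irradiated mice. The labels tell neither the NS of irradiated mice from the rest nor which tissues share a mouse, so the samples were treated as unpaired, and the p-values may be too small because the 8 AK stand for 4 mice.

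In skin, IL-1 family ligands are made largely by keratinocytes and by infiltrating myeloid cells. Agonists bind a specific receptor chain together with an accessory chain, and the signal passes through MyD88 and the IRAK kinases to NF-kB and the MAP kinases. Its output is held down by a receptor antagonist that occupies the receptor and by decoy receptors and binding proteins that capture the ligand. IL-1 beta and IL-18 are made as precursors that caspase-1 cuts within inflammasomes, whereas IL-1 alpha and IL-33 can act as alarm signals when cells are damaged.

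Several members lie next to each other in the genome (GRCm38, GENCODE M21). Il1f9 (chr2:24186476-24193568), Il1f6 (chr2:24215418-24225702) and Il1rn (chr2:24336853-24351494) share a stretch of chromosome 2, and Il1a (chr2:129299610-129309972) and Il1b (chr2:129364570-129371139) are neighbours further along it. The receptor genes Il1r2 (chr1:40074079-40125231), Il1r1 (chr1:40225080-40317257) and Il1rl1 (chr1:40429570-40465415) follow each other on chromosome 1. Il18 lies at chr9:50554827-50581840 and Il33 at chr19:29925114-29960718. Il1a shares 222 exon bases with a transcript on the opposite strand and Il1b shares 25, and the strand used in counting is not stated, so reads of these partners cannot be told apart from theirs.

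Promoter windows of 250 bases before the start site were read from RefSeq (GRCm38.p6), where 9 of the 10 members had an entry and Il1f6 had none. The windows of Il1b (chr2:129371140-129371389, minus strand), Il1a (chr2:129309973-129310222, minus strand) and Il18 (chr9:50554450-50554699, plus strand) are shown because Il1b and Il18 had the largest positive and negative fold changes of the members in cSCC and Il1a is the neighbour of Il1b. Capitals mark matches to TATAAA (the TATA box) or TGANTCA (AP-1) on either strand, and each sequence runs 5′ to 3′ toward the gene.
Il1b: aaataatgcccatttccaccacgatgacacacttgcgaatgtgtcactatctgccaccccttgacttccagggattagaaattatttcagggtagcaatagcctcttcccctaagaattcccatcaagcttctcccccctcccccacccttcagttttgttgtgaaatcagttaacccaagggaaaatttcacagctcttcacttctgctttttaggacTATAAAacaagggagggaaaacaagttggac
Il1a: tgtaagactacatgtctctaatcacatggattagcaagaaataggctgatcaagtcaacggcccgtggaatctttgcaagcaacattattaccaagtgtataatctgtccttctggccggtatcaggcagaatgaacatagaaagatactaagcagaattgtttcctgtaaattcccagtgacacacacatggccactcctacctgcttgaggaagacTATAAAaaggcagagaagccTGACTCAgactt
Il18: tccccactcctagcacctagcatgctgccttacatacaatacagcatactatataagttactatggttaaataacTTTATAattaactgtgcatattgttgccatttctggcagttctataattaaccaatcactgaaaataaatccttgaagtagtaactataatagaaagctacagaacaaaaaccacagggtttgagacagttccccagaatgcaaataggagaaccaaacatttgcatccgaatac
The TATAAA match began 31 bases before the start site in Il1b and 32 bases before it in Il1a, and Il1a also held TGANTCA 12 bases before the start. In Il18 the match was 175 bases before the start and on the opposite strand. Among windows not shown, the 2 of Il33 held TATAAA, 203 and 29 bases before their starts, and a window of Il1rn held TGANTCA 141 bases before its start. Among 32851 mouse promoter windows of this length, 12.4% held TATAAA and 6.75% held TGANTCA. For TTCNNNGAA (STAT), held by 7.02% of the windows, the windows of Il1r2 and Il1f9 had a match, whereas a 10-letter NF-kB motif, held by 1.21%, was found in no member's window. A match is a description of these letters and not of a bound site.

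The libraries held 1624325 to 6295575 counts in NS, 867219 to 14055206 in AK and 775750 to 7095102 in cSCC. Levels are CPM (counts put on one scale of library total) with TMM normalization over the 20 samples. The detection floor, for counting error only, was taken as 3 counts. By library total alone, before the TMM factors, 3 counts correspond to 0.213 CPM in the largest library and 3.87 CPM in the smallest. The skin label was checked by keratinocyte markers: the summed level of 7 basal keratinocyte genes was 5312 to 16334 CPM in NS and 9323 to 14363 CPM in AK. In cSCC replicates 18 to 21 it was 17881 CPM, 18488 CPM, 5412 CPM and 3866 CPM. Replicate 20 thus lay below every AK sample, and replicate 21 below every NS and AK sample. A pair of cSCC libraries stood apart. In cSCC replicate 21 the summed level of 8 heart muscle genes was 55249 CPM, and in cSCC replicate 20 the summed level of 8 lung genes was 36101 CPM, against at most 73.2 CPM and 299 CPM in NS and AK. Fold changes of the members in cSCC and counts of genes are therefore also given without both. Endothelial markers were highest in these libraries: their summed level over 8 genes was 120 CPM, 142 CPM, 253 CPM and 678 CPM in cSCC replicates 18 to 21, against 34.4 to 115 CPM in NS and 38.1 to 100.1 CPM in AK. Every cSCC sample thus lay above every NS and AK sample. Of these 8 genes, 7 were higher in cSCC than in NS and 8 than in AK by edgeR, whereas without both libraries 0 were higher than in NS (2 at an unadjusted p under 0.05) and 1 than in AK. Those fits also hold fewer cSCC samples, so the makeup of the libraries left out and lost power cannot be told apart. Scaling by library size alone moved the median log2 fold change of all genes from -0.04 to -0.13 for AK vs. NS, from 0.14 to -0.17 for cSCC vs. NS and from 0.17 to -0.09 for cSCC vs. AK, and the share of DEGs that were higher moved from 48.7% to 26.8%, from 60.4% to 31.9% and from 65.8% to 43.0%.

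Differentially expressed genes (DEGs) were those with an adjusted p under 0.05 (Benjamini-Hochberg over all genes tested, edgeR's quasi-likelihood test) and a fold change above 1.5 or below 0.67. All 10 members passed the filter on low counts in each comparison. For AK vs. NS, 1 member was higher (Il33) and 0 were lower, where 2.26% of the 11677 genes tested were higher and 2.38% lower. At an unadjusted p under 0.05, 3 members passed, all higher in AK (Il1b, Il1rl1 and Il33), where 708 of the 11677 genes were higher and 1090 lower. DESeq2 gave 2 DEGs (Il1b and Il33) among the members, and over all genes 433 higher and 616 lower. Under limma voom it was 1 member (Il33), and over all genes 521 higher and 522 lower. For cSCC vs. NS, 1 member was higher (Il1b) and 2 were lower (Il18 and Il1r1), against 11.7% higher and 7.65% lower among 12097 genes. For cSCC vs. AK, the same members passed in the same directions, against 16% higher and 8.34% lower among 12032 genes. These counts of members lay near the background shares and say nothing particular of the family. The median log2 fold change of the members was -0.06, -0.19 and -0.23 in the 3 comparisons, and that of all genes tested was -0.04, 0.14 and 0.17. The comparisons share samples, so their results are not independent. With cSCC replicates 20 and 21 left out, 733 of 12762 genes were higher in cSCC than in NS and 825 lower. Against AK, 843 of 12567 were then higher and 741 lower.

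**Figure D1:**
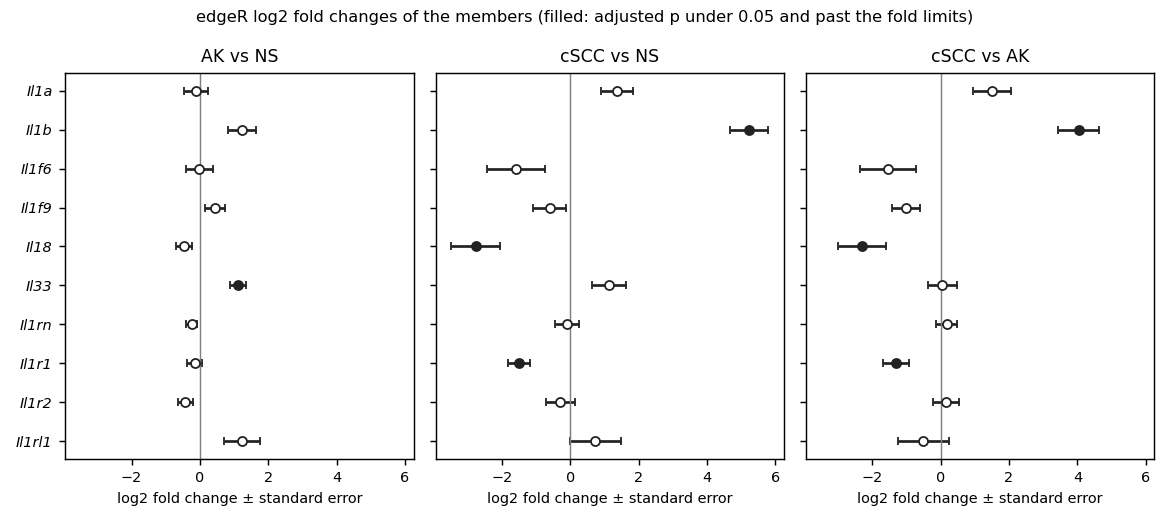
Log2 fold change of each member (x axis, points) with its standard error (bars) in the 3 comparisons (panels), from edgeR. Filled points passed the adjusted p and fold change limits: Il33 for AK vs. NS, and Il1b, Il18 and Il1r1 for both comparisons with cSCC.

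Among the agonists, Il1b, the inflammasome-processed IL-1 ligand of activated myeloid cells, changed the most. Its level was 493.9 CPM, 1453 CPM, 1154 CPM and 148.7 CPM in cSCC replicates 18 to 21. In NS it ranged from 5.10 to 31.3 CPM with a median of 27.4 CPM, and in AK from 27.7 to 174.4 CPM with a median of 34.2 CPM. All 4 cSCC samples lay above the highest NS sample, while the lowest cSCC sample, replicate 21, lay below the highest AK sample, replicate 16. Il1b was 37.7-fold higher in cSCC than in NS (log2 fold change 5.24 ± 0.55 (SE), edgeR adjusted p = 2.97e-04) and 16.4-fold higher than in AK (4.03 ± 0.59 (SE), adjusted p = 0.00187). Groups that do not overlap in this direction were seen for 2.7% of the genes for cSCC vs. NS, and for 3.33% for cSCC vs. AK, where no member was among them. With cSCC replicates 20 and 21 left out, the log2 fold changes of Il1b were 5.47 (edgeR adjusted p = 1.86e-04) and 4.29 (adjusted p = 0.00130).

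Between AK and NS, Il1b did not pass (log2 fold change 1.22 ± 0.42 (SE), edgeR adjusted p = 0.0817), and DESeq2 gave an adjusted p of 0.0307. That estimate leaned on 1 library, AK replicate 16, at 174.4 CPM, since the next AK sample was at 57.6 CPM. Without it the log2 fold change was 0.66 (edgeR adjusted p = 0.221).

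Levels of neutrophil and macrophage markers were set beside Il1b, because these cells are a known source of it. The summed level of 12 neutrophil genes ranged from 101 to 6012 CPM in NS (median 586 CPM), from 649 to 3186 CPM in AK (median 1496 CPM) and from 2791 to 14843 CPM in cSCC (median 3725 CPM). It was highest in cSCC replicate 18, whereas Il1b was highest in replicate 19. The largest parts of this sum were S100a8 and S100a9, at means of 2345 and 3373 CPM in cSCC, and the next was Ngp at 128 CPM. The paper also measured S100a9 in keratinocyte and cSCC cell lines. The sum therefore follows S100a8 and S100a9 and is not a measure of neutrophils alone. Of the 11 neutrophil genes tested, 3 were higher in cSCC than in NS (Csf3r, Cxcr2 and Fpr1) and 6 were higher than in AK. Without cSCC replicates 20 and 21 these counts were 1 of 12 (Csf3r) and 5 of 11. Csf3r passed the filter on low counts only in the comparisons with cSCC. The summed level of 12 macrophage and monocyte genes was 1541 to 5269 CPM in NS, 1358 to 8298 CPM in AK and 886 to 7741 CPM in cSCC, and 3 of the 12 were higher in cSCC than in NS (C1qa, Cd14 and Fcgr1), or 2 without both libraries (Cd14 and Fcgr1). Against AK, 2 of the 12 were higher (C1qa and Cd14), with or without both libraries. The median log2 fold change of the 12 was 0.48 against NS and 0.13 against AK, and that of all genes 0.14 and 0.17. Beside the neutrophil and macrophage counts, 11.7% of all genes tested were higher in cSCC than in NS and 16% than in AK. None of these markers was at 0 in any group, and the part of these cells in the Il1b difference was not tested. In such bulk tissue, fewer cells of a type and less RNA per cell cannot be told apart.

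**Figure D2:**
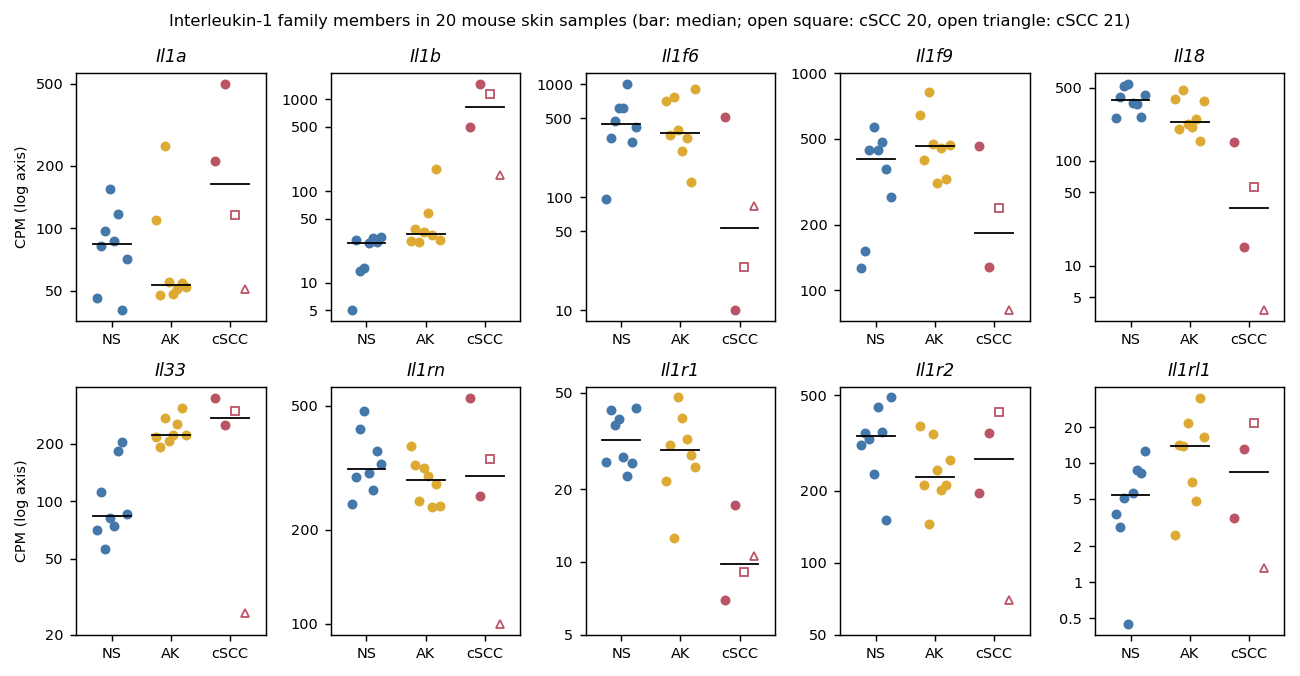
Level of each member in CPM (y axis, log scale, a scale of its own in each panel) in the 20 samples, with 1 point per sample and a bar at the group median; the open square is cSCC replicate 20 and the open triangle cSCC replicate 21. Il1b was higher in every cSCC than in every NS, and Il18 and Il1r1 were lower.

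Il1a, the IL-1 ligand stored in keratinocytes, did not pass edgeR's test in any comparison with all samples of the groups compared. Its level was 211 CPM, 495.2 CPM, 116 CPM and 51.1 CPM in cSCC replicates 18 to 21, 40.5 to 154.8 CPM in NS (median 84.2 CPM) and 47.5 to 249.7 CPM in AK (median 53.3 CPM). Of the cSCC samples, replicates 18 and 19 exceeded the highest NS sample. The log2 fold change was 1.37 ± 0.47 (SE) for cSCC vs. NS (edgeR adjusted p = 0.0547), 1.502 ± 0.54 (SE) for cSCC vs. AK (adjusted p = 0.0570) and -0.11 ± 0.36 (SE) for AK vs. NS (adjusted p = 0.880). Other settings put Il1a past the threshold: DESeq2 for cSCC vs. NS (1.37, adjusted p = 0.0351), and for cSCC vs. AK DESeq2 (1.49, adjusted p = 0.0405), limma voom (1.94, adjusted p = 0.0125) and a single edgeR fit of all 20 samples (1.403, adjusted p = 0.0375). The edgeR call for cSCC vs. NS also turned on single libraries: the log2 fold change passed without cSCC replicate 20 (1.57, edgeR adjusted p = 0.0454), without cSCC replicate 21 (1.70, adjusted p = 0.0141) and without NS replicate 5 (1.54, adjusted p = 0.0478), and it was 0.58 without cSCC replicate 19 (adjusted p = 0.392). Likewise for cSCC vs. AK it passed without cSCC replicate 20 (1.71, edgeR adjusted p = 0.0480), without cSCC replicate 21 (1.76, adjusted p = 0.0275) and without AK replicate 12 (1.88, adjusted p = 0.0159), and was 0.70 without cSCC replicate 19 (adjusted p = 0.364). With both cSCC replicates 20 and 21 left out it was 2.05 against NS (edgeR adjusted p = 0.00918) and 2.20 against AK (adjusted p = 0.0158).

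Il18, a ligand made constitutively in the epidermis and known for inducing interferon gamma, moved opposite to Il1b. It was at 150.0 CPM, 14.9 CPM, 55.8 CPM and 3.804 CPM in cSCC replicates 18 to 21, the last from 23 counts. NS ranged from 259 to 536 CPM (median 379 CPM) and AK from 156 to 479 CPM (median 237 CPM). Every cSCC sample lay below every NS and every AK sample, a pattern seen for 5.73% of the genes for cSCC vs. NS and 6.84% for cSCC vs. AK. Il18 was 6.80-fold lower in cSCC than in NS (log2 fold change -2.76 ± 0.71 (SE), edgeR adjusted p = 0.0169) and 4.91-fold lower than in AK (-2.30 ± 0.70 (SE), adjusted p = 0.0278).

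The size of the Il18 difference depended on cSCC replicate 18, without which the log2 fold change was -4.02 against NS (edgeR adjusted p = 0.00184) and -3.58 against AK (adjusted p = 0.00265). Against AK the call was lost without cSCC replicate 19 (-1.98, edgeR adjusted p = 0.0641), without cSCC replicate 20 (-2.32, adjusted p = 0.0530) and without both 20 and 21 (-1.76, adjusted p = 0.0895). Against NS it was kept without both (-2.23, edgeR adjusted p = 0.0435). For AK vs. NS the log2 fold change was -0.46 ± 0.23 (SE, edgeR adjusted p = 0.211).

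Suprabasal keratinocyte markers moved with Il18. The summed level of 8 such genes was 2599 CPM, 446 CPM, 560 CPM and 205 CPM in cSCC replicates 18 to 21, against 6360 to 16884 CPM in NS and 3620 to 15677 CPM in AK, and 6 of the 8 were lower in cSCC in both comparisons. With cSCC replicates 20 and 21 left out, 5 of the 8 were lower against NS and 3 against AK (Dsg1a, Flg and Lor). The sum, like the Il18 level, was highest in replicate 18 and lowest in replicate 21. None of the 8 was at 0 in any group, and their part in the Il18 difference was not tested.

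Il33, a nuclear alarm cytokine of barrier cells and the ligand of Il1rl1, was the member that was higher in AK than in NS. In AK it ranged from 192 to 307 CPM (median 222 CPM) and in NS from 56.0 to 203 CPM (median 83.9 CPM). The groups overlapped through NS replicate 8, at 203 CPM, and 7 of the 8 AK samples lay above every NS sample. Il33 had a log2 fold change of 1.11 ± 0.24 (SE), that is 2.16-fold (edgeR adjusted p = 0.0190). It lay between 1.01 and 1.29 when any 1 sample was left out (edgeR adjusted p from 0.00711 to 0.0428), but in a single fit of all 20 samples it was 1.12 with an adjusted p of 0.152. In that fit only 5 of 12847 genes were higher in AK and 4 lower, so the loss was not particular to Il33. No member had groups that did not overlap for AK vs. NS, where 0.522% of the genes did in either direction.

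In cSCC Il33 was at 347 CPM, 251 CPM, 296 CPM and 26.0 CPM in replicates 18 to 21, so 3 of the 4 samples exceeded every NS sample and replicate 21 lay below all of them. The log2 fold change for cSCC vs. NS was 1.13 ± 0.50 (SE, edgeR adjusted p = 0.128), and without replicate 21 it was 1.503 (adjusted p = 0.0129). Under limma voom with all samples Il33 did pass as higher for cSCC vs. NS. Leaving out both replicates 20 and 21 gave 1.49 (edgeR adjusted p = 0.0350) against NS and 0.40 (adjusted p = 0.261) against AK. For cSCC vs. AK the log2 fold change was 0.04 ± 0.43 (SE, edgeR adjusted p = 0.952).

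The IL-36 ligands Il1f6 and Il1f9, which act on keratinocytes through the IL-36 receptor, did not pass edgeR's test in any comparison with all samples. Il1f6 was at 514 CPM in cSCC replicate 18 but at 10.1 CPM, 23.9 CPM and 83.4 CPM in replicates 19 to 21. NS ranged from 95.6 to 996 CPM (median 447 CPM) and AK from 137 to 911 CPM (median 373 CPM), so 3 cSCC samples were below every NS and AK sample and the other was inside both ranges. Il1f6 had a log2 fold change of -1.58 ± 0.84 (SE, edgeR adjusted p = 0.203) against NS and -1.54 ± 0.81 (SE, adjusted p = 0.180) against AK. It did pass under limma voom (-3.55 and -3.35, adjusted p = 0.0227 and 0.0287) and with library size alone in edgeR (-2.44 and -2.33, adjusted p = 0.0351 and 0.0330). Without cSCC replicate 18 it was -3.52 (edgeR adjusted p = 0.00693) and -3.54 (adjusted p = 0.00373). Without replicates 20 and 21 it was -0.87 (edgeR adjusted p = 0.584) and -0.84 (adjusted p = 0.583).

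Il1f9 showed a smaller spread in cSCC than Il1f6. It was at 461 CPM, 127 CPM, 239 CPM and 81.0 CPM in cSCC replicates 18 to 21, at 126 to 563 CPM in NS (median 402 CPM) and at 311 to 824 CPM in AK (median 461 CPM). Its log2 fold change for cSCC vs. AK was -1.02 ± 0.41 (SE, edgeR adjusted p = 0.0819), with library size alone it was -1.41 (adjusted p = 0.0186), and without cSCC replicate 18 it was -1.67 (adjusted p = 0.00789). Without both replicates 20 and 21 that value was -0.68 (edgeR adjusted p = 0.331), and against NS it was -0.26 (adjusted p = 0.799). For cSCC vs. NS it was -0.60 ± 0.49 (SE, edgeR adjusted p = 0.415) and for AK vs. NS 0.44 ± 0.28 (SE, adjusted p = 0.344). For Il1f6 the log2 fold change was -0.02 ± 0.39 (SE) for AK vs. NS (edgeR adjusted p = 0.984).

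To compare ligands with each other, CPM were divided by exon length (CPM per kb). The sum of the 6 agonists was 486 to 1902 CPM per kb in NS, 729 to 2067 CPM per kb in AK and 260 to 1493 CPM per kb in cSCC. Il1b made up 0.459% to 1.60% of this sum in NS (median 0.934%), 0.704% to 12.6% in AK (median 1.72%) and 17.3% to 63.3% in cSCC (median 45.5%). The cSCC range did not overlap the others. Il18 made up 17.9% to 51.6% in NS, 20.2% to 24.97% in AK and 1.20% to 9.74% in cSCC. Il1f6 was the largest part in most NS and AK samples, with medians of 40.5% and 41.8%, and took 0.951% to 39.0% in cSCC.

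The ligand with the highest level per kb differed within groups. It was Il18 in NS replicates 1 and 2 and Il1f6 in the other NS. In AK it was Il1f6 in each sample but replicate 16, where it was Il1f9 at 197 CPM per kb. In cSCC it was Il1b in replicates 19 and 20, at 762 and 605 CPM per kb, and Il1f6 in replicates 18 and 21, at 582 and 94.4 CPM per kb.

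**Figure D3:**
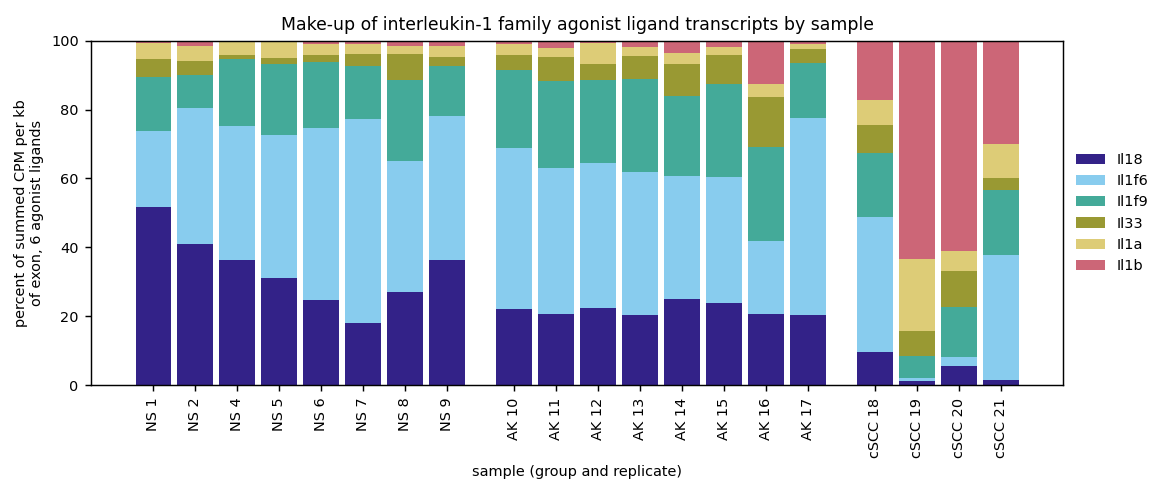
Make-up of the 6 agonist ligands in each of the 20 samples, as the percent of their summed CPM per kb (y axis, stacked bars from 0 to 100, 1 bar per sample). Il1b took 0.459% to 1.60% in NS and 17.3% to 63.3% in cSCC, and Il18 took 1.20% to 9.74% in cSCC.

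On the inhibitory side, Il1rn, the secreted antagonist that blocks the IL-1 receptor without signaling, did not follow Il1b. It was at 529 CPM, 257 CPM, 339 CPM and 100.2 CPM in cSCC replicates 18 to 21, at 243 to 483 CPM in NS (median 315 CPM) and at 238 to 372 CPM in AK (median 290 CPM). Of the cSCC samples, 1 lay above the NS range, 1 below it and the other two within it. The log2 fold change was -0.24 ± 0.15 (SE) for AK vs. NS (edgeR adjusted p = 0.334), -0.09 ± 0.36 (SE) for cSCC vs. NS (adjusted p = 0.889) and 0.17 ± 0.31 (SE) for cSCC vs. AK (adjusted p = 0.726). With cSCC replicates 20 and 21 left out the values were 0.24 against NS (edgeR adjusted p = 0.658) and 0.499 against AK (adjusted p = 0.223). These tests do not show that the levels were equal.

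The inhibitors were then set against what they block within each library, a ratio of counts that no scaling between libraries can move. The counts were not divided by length, so the ratios serve to compare groups and not genes, and 9 tests (3 ratios in 3 comparisons) were adjusted together. The count ratio of Il1rn to Il1b was 8.71 to 46.8 in NS (median 11.99), 1.61 to 13.1 in AK (median 8.31) and 1.07, 0.177, 0.294 and 0.674 in cSCC replicates 18 to 21. No cSCC sample overlapped with NS or AK. The mean log2 ratio was 38.0-fold lower in cSCC than in NS and 15.3-fold lower than in AK (two-sided exact permutation tests, p = 0.00202 for each, the smallest these samples can give, adjusted p = 0.00606). It was 2.49-fold lower in AK than in NS (exact permutation p = 0.00591, adjusted p = 0.00909), a difference of -1.32 on the log2 scale that became -1.02 without AK replicate 16 (adjusted p = 0.0254). Leaving out both cSCC replicates 20 and 21 gave -5.27 against NS and -3.95 against AK (exact permutation tests, adjusted p = 0.0286 for each).

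Il18bp, which binds and neutralises IL-18 and is not one of the 10 members, was compared with Il18 in the same way. The count ratio of Il18bp to Il18 was 0.00609 to 0.120 in NS (median 0.0270), 0.0381 to 0.338 in AK (median 0.121) and 0.316, 2.07, 0.556 and 5.26 in cSCC replicates 18 to 21. It was 4.43-fold higher in AK than in NS (exact permutation p = 0.00606, adjusted p = 0.00909), 45.5-fold higher in cSCC than in NS (p = 0.00202, the smallest possible, adjusted p = 0.00606) and 10.3-fold higher in cSCC than in AK (p = 0.00404, adjusted p = 0.00909). The cSCC samples lay above every NS sample, and cSCC replicate 18 lay within the AK range. Without cSCC replicates 20 and 21 the difference from AK was 2.82 on the log2 scale (exact permutation test, adjusted p = 0.05), where 45 arrangements allow no p under 0.0222, and that from NS was 4.97 (adjusted p = 0.0286). Il18bp itself was at 13.1 ± 10.6 CPM (SD, n = 8) in NS, 33.4 ± 18.1 CPM (SD, n = 8) in AK and 32.4 ± 11.1 CPM (SD, n = 4) in cSCC, and did not pass against NS in AK (edgeR adjusted p = 0.0700) or in cSCC (adjusted p = 0.105). For cSCC vs. AK the log2 fold change of Il18bp was 0.04 ± 0.36 (SE, edgeR adjusted p = 0.949), so that ratio differed mainly through Il18.

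**Figure D4:**
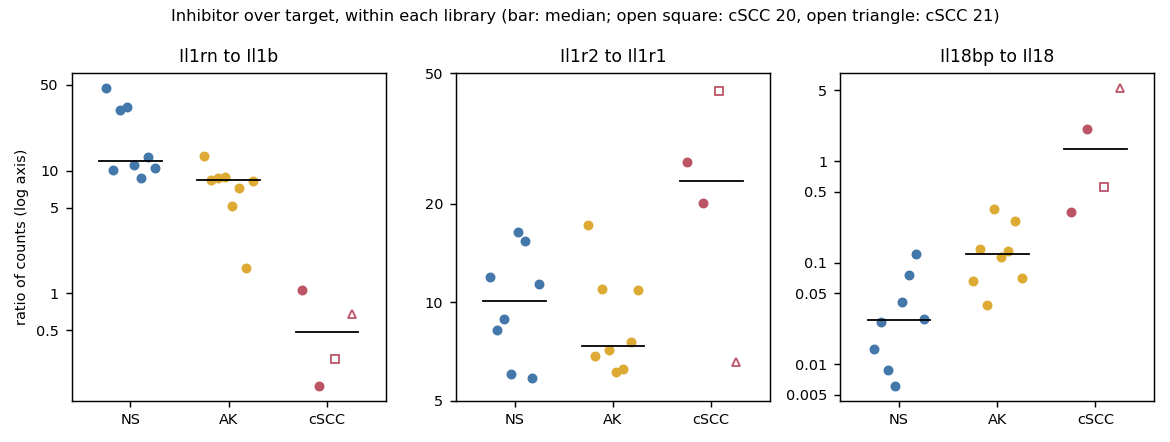
Count ratio of an inhibitor to its target within each library (y axis, log scale) for Il1rn to Il1b, Il1r2 to Il1r1 and Il18bp to Il18, with 1 point per sample and a bar at the group median; the open square is cSCC replicate 20 and the open triangle cSCC replicate 21. The Il1rn to Il1b ratio was 8.71 to 46.8 in NS and at most 1.07 in cSCC.

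Il1r1, the signaling receptor for IL-1 alpha and IL-1 beta, was lower in cSCC. It was at 6.95 CPM, 17.1 CPM, 9.10 CPM and 10.6 CPM in cSCC replicates 18 to 21, of which the first rests on 10 counts and the third on 8. NS ranged from 22.6 to 43.2 CPM (median 32.01 CPM) and AK from 12.6 to 47.9 CPM (median 29.1 CPM). Every cSCC sample was below every NS sample, while cSCC replicate 19 was above the lowest AK sample, replicate 12. The log2 fold change was -1.51 ± 0.32 (SE), a 2.84-fold lower level, for cSCC vs. NS (edgeR adjusted p = 0.00745) and -1.30 ± 0.38 (SE), 2.46-fold lower, for cSCC vs. AK (adjusted p = 0.0227). Leaving out cSCC replicates 20 and 21 gave -1.38 against NS (edgeR adjusted p = 0.0461) and -1.20 against AK (adjusted p = 0.114). Under limma voom neither passed, with log2 fold changes of -1.36 (adjusted p = 0.0824) and -1.29 (adjusted p = 0.191). The AK vs. NS value was -0.15 ± 0.22 (SE, edgeR adjusted p = 0.718).

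Il1r2, the decoy receptor that binds IL-1 without signaling, did not pass in any comparison. It was at 195 CPM, 349 CPM, 427 CPM and 70.0 CPM in cSCC replicates 18 to 21, at 151 to 490 CPM in NS (median 339 CPM) and at 145 to 374 CPM in AK (median 227 CPM). The cSCC samples spanned nearly the whole range of the others, with replicate 21 below it. Its log2 fold change was -0.43 ± 0.22 (SE, edgeR adjusted p = 0.230) for AK vs. NS, -0.30 ± 0.42 (SE, adjusted p = 0.660) for cSCC vs. NS and 0.16 ± 0.38 (SE, adjusted p = 0.787) for cSCC vs. AK. Leaving out both replicates 20 and 21 gave -0.26 (edgeR adjusted p = 0.699) and 0.20 (adjusted p = 0.730) for the comparisons with cSCC.

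The count ratio of Il1r2 to Il1r1 was 26.8, 20.1, 44.2 and 6.57 in cSCC replicates 18 to 21, against 5.88 to 16.4 in NS (median 10.1) and 6.13 to 17.3 in AK (median 7.37). In 3 of the 4 cSCC samples it was above every NS and AK sample. It was 2.32-fold higher in cSCC than in AK (exact permutation p = 0.0242, adjusted p = 0.0312) and did not pass for cSCC vs. NS (log2 difference 1.02, exact permutation p = 0.0646, adjusted p = 0.0727) or AK vs. NS (-0.20, p = 0.470). Against AK the call was lost when AK replicate 11, 13, 14, 15 or 16 or cSCC replicate 18, 19 or 20 was left out, with log2 differences from 0.83 to 1.75 over all samples left out in turn (exact permutation tests, adjusted p from 0.00779 to 0.132). Against NS it passed without cSCC replicate 21 (1.55, exact permutation adjusted p = 0.00779). Without both replicates 20 and 21 the differences were 1.24 against NS and 1.44 against AK (exact permutation tests, adjusted p = 0.0286 for each).

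Il1rl1, the IL-33 receptor ST2 of mast cells, regulatory T cells and innate lymphoid cells, was the least abundant member per kb in NS. Its mean was 0.858 ± 0.554 CPM per kb (SD, n = 8) in NS, against 5.16 ± 1.31 CPM per kb (SD, n = 8) for Il1r1. In CPM it ranged from 0.450, from 2 counts, to 12.6 in NS (median 5.36) and from 2.47 to 34.8 in AK (median 13.98), and was at 3.47, 13.2, 21.6 and 1.32 in cSCC replicates 18 to 21. The groups overlapped in each comparison. Its log2 fold change was 1.23 ± 0.53 (SE, edgeR adjusted p = 0.156) for AK vs. NS, 0.73 ± 0.75 (SE, adjusted p = 0.521) for cSCC vs. NS and -0.51 ± 0.75 (SE, adjusted p = 0.660) for cSCC vs. AK. As few as 2 counts in a library stood behind these values, so smaller differences could not be resolved at this depth. In the fits without cSCC replicates 20 and 21, the comparisons with cSCC gave 0.55 (edgeR adjusted p = 0.694) and -0.63 (adjusted p = 0.666). Beside Il1rl1, the summed level of 8 mast cell genes was 58.9 to 1415 CPM in NS, 107 to 1823 CPM in AK and 70.3 to 992 CPM in cSCC, and that of 7 regulatory T cell genes 117 to 216 CPM, 83.2 to 195 CPM and 17.5 to 87.5 CPM. Of the mast cell genes, 1 of 8 was higher in cSCC than in NS and AK (Hdc), where 11.7% and 16% of all genes were higher. Without cSCC replicates 20 and 21 Tpsb2 was also higher than in AK. The other 7 did not pass with all samples. Against NS, Cpa3, Cma1, Mcpt4 and Ms4a2 had negative log2 fold changes and Tpsb2, Kit and Fcer1a positive ones. The median of the 8 was 0.04 against NS and -0.26 against AK, and that of all genes 0.14 and 0.17. Of the 4 regulatory T cell genes tested, 1 was lower in cSCC (Ikzf2, log2 fold change -3.001 ± 0.43 (SE) against NS and -2.21 ± 0.47 (SE) against AK, edgeR adjusted p = 0.00138 and 0.00590), also without both libraries. Over all genes tested, 7.65% were lower in cSCC than in NS and 8.34% than in AK. Foxp3, Ikzf4 and Ccr8 did not pass the filter on low counts and were not tested. The regulatory T cell sum was mostly Ikzf2 and Tnfrsf18, at means of 89.1 and 64.5 CPM in NS and 11.1 and 30.1 CPM in cSCC. Il2ra and Ctla4 were at 4.28 and 6.67 CPM in NS. Against NS, Tnfrsf18, Il2ra and Ctla4 did not pass (edgeR adjusted p = 0.136, 0.349 and 0.502). The part of mast cells and regulatory T cells in the Il1rl1 values was not tested.

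AK replicate 16 stood at an extreme for several members. Of the AK samples it had the highest Il1b (174.4 CPM), Il33 (307 CPM) and Il1rl1 (34.8 CPM) and the lowest Il18 (156 CPM) and Il1f6 (137 CPM). Its summed level of suprabasal keratinocyte genes, 3620 CPM, was also the lowest of AK, and the part of these cells in its values was not tested.

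Other genes of the family were counted by list. The background shares of all genes tested, given above with the members, apply to these counts too. Of 4 other ligands and antagonists, Il1f5 (the IL-36 receptor antagonist), Il1f8 (IL-36 beta) and Il1f10 (IL-38) were lower in cSCC than in NS, and Il18bp did not pass. Il1f5 was at 734 ± 298 CPM (SD, n = 8) in NS and 152 ± 192 CPM (SD, n = 4) in cSCC (log2 fold change -2.24 ± 0.65 (SE), edgeR adjusted p = 0.0271). Il1f8 was at 382 ± 204 CPM (SD, n = 8) in NS and 66.1 ± 74.8 CPM (SD, n = 4) in cSCC (log2 fold change -2.50 ± 0.65 (SE), edgeR adjusted p = 0.0175). Il1f10 had 0 counts in each cSCC sample and 10.4 ± 8.79 CPM (SD, n = 8) in NS, at least 5.69-fold lower when each cSCC library is set at its floor of 3 counts (edgeR adjusted p = 0.00893). With all samples of the groups compared, Il1f10 passed the filter on low counts only in the comparisons with NS, the group where it was highest. Its call is therefore a description. Il1f5 and Il1f8 were also lower in cSCC than in AK (-2.07 and -2.54, edgeR adjusted p = 0.0291 and 0.00931), where 3 of the list were tested. For AK vs. NS 0 of the 4 passed edgeR's test, with 2 at an unadjusted p under 0.05, 2 DEGs by DESeq2 and 1 by limma voom. When cSCC replicates 20 and 21 were left out, 0 were higher and 1 was lower against NS (Il1f10), and 0 passed against AK.

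Of 7 other receptors, 5 were tested for cSCC vs. NS and 4 for the other comparisons. Il18rap, the accessory chain of the IL-18 receptor, was higher in cSCC than in NS (24.3 ± 23.4 CPM (SD, n = 4) against 6.87 ± 3.38 CPM (SD, n = 8), log2 fold change 1.85 ± 0.58 (SE), edgeR adjusted p = 0.0370). Il1rl2, the IL-36 receptor, was lower (27.6 ± 10.9 CPM (SD, n = 4) against 85.3 ± 25.9 CPM (SD, n = 8), log2 fold change -1.59 ± 0.34 (SE), edgeR adjusted p = 0.00712), with no overlap between the groups. Against AK the log2 fold changes were 1.80 and -1.35 (edgeR adjusted p = 0.0181 and 0.00541). Il1rap, the accessory chain shared by the IL-1, IL-33 and IL-36 receptors, had a log2 fold change of -0.05 ± 0.32 (SE) for cSCC vs. NS (edgeR adjusted p = 0.932). In AK vs. NS 0 passed, with 0 at an unadjusted p under 0.05 and 0 by DESeq2 or limma voom. Without cSCC replicates 20 and 21, 0 were higher and 1 was lower in each comparison with cSCC.

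Of 19 genes for processing and release, 12 were tested for cSCC vs. NS, where 2 were higher and 2 lower. Mefv, which encodes the inflammasome sensor pyrin, and Gsdmd, the pore protein through which IL-1 beta leaves the cell, were higher (log2 fold change 2.63 ± 0.69 (SE) and 1.5 ± 0.499 (SE), edgeR adjusted p = 0.0182 and 0.0485). Nlrp10 and the epithelial pore gene Gsdma were lower (-1.77 ± 0.43 (SE) and -2.43 ± 0.46 (SE), edgeR adjusted p = 0.0136 and 0.00407). These 4 moved the same way against AK, where Capn1, a protease that cuts IL-1 alpha, was also higher (1.64 ± 0.40 (SE), edgeR adjusted p = 0.0112), so 3 were higher and 2 lower of 12. Capn1 was the 1 gene of 10 tested that was lower in AK than in NS (-1.41 ± 0.30 (SE), edgeR adjusted p = 0.0190). Casp1, which cuts both IL-1 beta and IL-18, was at 228 ± 49.3 CPM (SD, n = 8) in NS and 152 ± 116 CPM (SD, n = 4) in cSCC and did not pass (edgeR adjusted p = 0.425). In the fit without cSCC replicates 20 and 21, 1 was higher and 1 lower in each comparison with cSCC. Mefv passed the filter on low counts only in the comparisons with cSCC.

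Of 24 signaling genes, 1 was higher and 6 were lower in cSCC than in NS. Myd88, the adaptor of the family's receptors, was at 46.9 ± 6.11 CPM (SD, n = 4) in cSCC and 28.1 ± 5.49 CPM (SD, n = 8) in NS (log2 fold change 0.80 ± 0.22 (SE), edgeR adjusted p = 0.0240). The lower genes were Peli1 (-1.997 ± 0.40 (SE), edgeR adjusted p = 0.00530), a ubiquitin ligase of the IRAK complex, the kinase partners Tab2 (-1.38) and Tab3 (-1.36), and the kinases Mapk8 (-1.14), Mapk14 (-0.75) and Ikbkb (-0.69). Against AK, Myd88 (0.82) and the NF-kB inhibitor Nfkbia (1.29) were higher, and Peli1 (-1.76), Tab2 (-1.34), Tab3 (-1.35) and Mapk8 (-1.14) were lower. For AK vs. NS 0 of the 24 passed, with 3 at an unadjusted p under 0.05 and 0 DEGs by DESeq2 or limma voom. Without cSCC replicates 20 and 21, 0 were higher and 4 lower against NS, and 1 was higher and 3 lower against AK.

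Of 18 genes known to be induced by IL-1 in skin cells, 14 were tested for cSCC vs. NS. Of these, 12 were higher in cSCC and 1 was lower, where 11.7% of all genes tested were higher and 7.65% lower (16% and 8.34% against AK). The list was chosen with earlier results of these data known, so its counts are a description. Cxcl3 passed the filter on low counts only in the comparisons with cSCC. The median log2 fold change of the 14 was 4.66, against 0.14 over all genes. The neutrophil chemokine Cxcl1 was at 176 ± 271 CPM (SD, n = 4) in cSCC and 4.67 ± 4.40 CPM (SD, n = 8) in NS (log2 fold change 5.25 ± 0.92 (SE), edgeR adjusted p = 0.00283), and Cxcl2 at 119 ± 44.7 CPM (SD, n = 4) and 3.39 ± 2.35 CPM (SD, n = 8) (5.19 ± 0.55 (SE), adjusted p = 2.97e-04). The others that were higher were the chemokines Cxcl3 and Cxcl5, the cytokines Il19, Il24 and Tslp, the cyclooxygenase gene Ptgs2, the collagenase Mmp13, the stromelysin Mmp3, the acute phase gene Saa3 and the adhesion gene Icam1, with log2 fold changes from 2.03 to 5.45. Ccl20 was lower (-4.79 ± 1.20 (SE), edgeR adjusted p = 0.0150). Against AK, 8 of 15 were higher, among them Lcn2 (2.09 ± 0.27 (SE), edgeR adjusted p = 0.00116) and Cxcl3 (5.69 ± 0.89 (SE), adjusted p = 0.00219), and Ccl20 was lower (-3.25). Without cSCC replicates 20 and 21, 11 of 15 were higher and 0 lower against NS, and 8 of 16 were higher and 1 lower against AK. These genes also respond to other cytokines, which was not tested.

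For AK vs. NS, 3 of the 14 IL-1-induced genes tested were higher and 0 were lower, where 2.26% of all genes tested were higher and 2.38% lower. Ptgs2 was at 33.8 ± 34.6 CPM (SD, n = 8) in AK and 2.47 ± 2.79 CPM (SD, n = 8) in NS (log2 fold change 3.69 ± 0.67 (SE), edgeR adjusted p = 0.0151). Mmp13 was at 170 ± 162 CPM (SD, n = 8) in AK and 15.9 ± 19.04 CPM (SD, n = 8) in NS (3.41 ± 0.79 (SE), edgeR adjusted p = 0.0247). Tslp, an epithelial alarm cytokine like Il33, was at 105 ± 58.4 CPM (SD, n = 8) in AK and 14.1 ± 3.93 CPM (SD, n = 8) in NS (2.87 ± 0.32 (SE), edgeR adjusted p = 3.08e-04), and every AK sample was above every NS sample. In a single fit of all 20 samples Ptgs2 still passed (3.71, edgeR adjusted p = 0.0369), whereas Mmp13 (3.43, adjusted p = 0.0765) and Tslp (2.88, adjusted p = 0.0912) did not. In that fit only 5 of 12847 genes were higher in AK and 4 lower.

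The genes whose levels followed each member most closely were ranked by Spearman's rho of CPM over the 20 samples, among 11473 genes tested in all 3 comparisons. These values describe samples that share group differences and library makeup. For Il1b the nearest were Anxa3 (0.889), Sirpb1b (0.875) and Cd300lf (0.871). The closest match of any member was that of Il18, with Lipm (0.961), Skint11 (0.959) and Lipk (0.955). Il1rl1 was nearest to Fcer1a (0.899), a chain of the mast cell IgE receptor, followed by Ccl6 (0.874) and Ms4a6d (0.863). For the other members the nearest gene was Acot9 for Il33 (0.928), Plbd1 for Il1f9 (0.920), Atox1 for Il1f6 (0.907), Zfp534 for Il1r1 (0.885), Abcc3 for Il1r2 (0.738), Arhgap27 for Il1rn (0.738) and Cops5 for Il1a (0.708).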

How the data were processed

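Samples were grouped by their labels. The authors trimmed the reads with Trimmomatic and aligned them with HISAT2, and the authors deposited raw counts per gene symbol without normalization. The paper's methods name GRCm38 and StringTie, while the submitters' processing notes name Trimmomatic 0.36, HISAT2 2.0.5 and featureCounts 1.5.2 with other builds, and this difference was not resolved. From the deposited counts, CPM with TMM factors were computed, and groups were compared in edgeR 4.0.16 (R 4.3.3) by its quasi-likelihood test after filterByExpr, using only the samples of the groups compared, with Benjamini-Hochberg adjustment. The fit was also run on simulated counts with planted changes, where the libraries otherwise shared the same makeup. That run cannot show how the fits handle libraries like cSCC replicates 20 and 21. Ratios of counts used 0.5 added to each count and two-sided exact permutation tests over samples. Alternatives were DESeq2 1.42.0, limma 3.58.1 voom (sample quality weights), scaling by library size alone, no gene filter, an unadjusted p, all 20 samples in 1 fit, other ratio pseudocounts, and leaving out each sample in turn or both cSCC replicates 20 and 21. Named genes were the 10 members, genes of the pathway lists that were DEGs in at least 1 comparison, and the 3 genes nearest to each member. The Il1rap, Casp1 and Il18bp values and the marker genes named were given after they were seen. The members and lists were chosen with earlier results of these data known. Coordinates are from GENCODE M21.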

Additional observations from a re-analysis of the deposited data

Results flagged for a closer look

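Within each group, the distance of the highest or lowest sample from its nearest neighbour was set against the group's whole range on the log2(CPM + 1) scale, for 30 groups (10 members in 3 groups), and chance alone picks out about 1 group in 20. Values passed for 2 of them. Il1b in AK replicate 16, at 174.4 CPM, was far above the other AK samples, with a gap of 0.606 of the range where 0.526 is the limit for 8 samples. Il33 in cSCC replicate 21, at 26.0 CPM, was far below the other cSCC samples, with a gap of 0.874 where 0.829 is the limit for 4 samples. This is the library in which heart muscle genes summed to 55249 CPM, and their part in the low Il33 value was not tested.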

How the results depend on the processing

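No paired analysis was possible because the labels give each sample a replicate number of its own and name no mouse. The number of members that were DEGs for AK vs. NS was 1, and it was 3 at an unadjusted p, 2 with DESeq2 and 0 in 1 fit of all 20 samples (edgeR, 3 members at an unadjusted p under 0.05). Over all genes that last fit gave 5 higher and 4 lower of 12847, where the main fit gave 264 and 278 of 11677. For cSCC vs. NS the number of members was 3, and 5 at an unadjusted p, where 2440 of 12097 genes were higher and 1612 lower. It was also 5 without both cSCC replicates 20 and 21, where 733 of 12762 genes were higher and 825 lower. For cSCC vs. AK the number of members was 3, and 5 at an unadjusted p, where 2888 of 12032 genes were higher and 1616 lower. With library size alone it was 5, where 1021 genes were higher and 1356 lower. It was 2 without both (Il1a and Il1b, with Il18 and Il1r1 lost), where 843 of 12567 genes were higher and 741 lower. Leaving out 1 sample at a time gave 3 to 5 members for cSCC vs. NS (5 without cSCC replicate 21) and 2 to 5 for cSCC vs. AK (5 without cSCC replicate 18). Without cSCC replicate 21, 859 of 12317 genes were higher and 892 lower than in NS. Without cSCC replicate 18, 2330 of 12734 genes were higher and 1664 lower than in AK. The log2 ratio of Il1r2 to Il1r1 for cSCC vs. NS passed without both replicates 20 and 21 (1.24) and ranged from 0.63 to 1.55 when 1 sample was left out, and for cSCC vs. AK from 0.83 to 1.75. The log2 ratio of Il18bp to Il18 for cSCC vs. AK, 2.82 without both, no longer passed. No member's fold change or ratio that passed changed its direction under the settings run. Of the fold changes of single members under the alternatives, 563 kept their side of the threshold, 30 came to pass and 7 no longer passed. The cause of these changes was not tested. Depth limits Il1rl1 and Il1r1 most, with as few as 2 and 8 counts in a library.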
